A study of Macaca fuscata with 12 samples.

Results

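Molecular chaperones and co-chaperones were followed in the cerebral cortex of Japanese macaques (Macaca fuscata) trained in tool use and of untrained controls. The members are all probe sets of the array whose annotation gives a single gene symbol of the heat shock protein (HSP), J protein (DNAJ), chaperonin (CCT and TCP1), FK506-binding protein (FKBP), BAG or cyclophilin (PPI) families. This rule found 160 probe sets of 80 genes, among 52766 probe sets tested. The study hybridised 12 Affymetrix arrays designed for the rhesus macaque with RNA from the left hemisphere of 8 animals. The tissue came from an area along the lateral sulcus that takes in the secondary somatosensory area (called SII here), or from around the intraparietal sulcus (IPS), and 4 animals gave both.

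The 4 groups had 3 arrays each, and within a group every array came from a separate animal. The SII trained group held a male of 5 years 7 months, a female of 3 years 10 months and a male of 5 years 1 month. The SII control group held a female of 4 years 6 months and males of 5 years 4 months and 5 years 10 months. The IPS trained group held males of 5 years 7 months, 6 years 0 months and 5 years 1 month. The IPS control group held males of 5 years 4 months, 5 years 10 months and 3 years 9 months. No genotype or drug is named in the labels, and what the control animals did in place of training was not given in the sources used here.

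Chaperones hold newly made or damaged proteins in a state from which they can fold. HSP70 proteins bind short exposed stretches of a client, J proteins bring clients to HSP70 and start its ATP cycle, and BAG and HSP110 proteins release the bound nucleotide. HSP90 takes over clients that are nearly folded, among them the glucocorticoid receptor, whose hormone binding is raised by the FKBP4 protein and lowered by the FKBP5 protein. FKBP5 transcription is itself raised by the activated receptor, which makes its mRNA a common readout of glucocorticoid action in brain. The CCT ring folds actin and tubulin, small heat shock proteins hold unfolded clients without ATP, and cyclophilins and FKBPs turn proline bonds.

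The deposited values are log2 values centred on each probe set's own median over the 12 arrays. A value of 0 is therefore that median, 1 is a doubling of signal relative to it, and levels of different genes cannot be compared. A rough signal class could still be recovered from the numerical spacing of the values, as described under the processing. Of the 160 probe sets, 40 had a high signal, 85 a middle signal and 27 a low signal, and 8 lay at the lowest value of the array, the floor, in at least 2 arrays. Of all 52766, 4500 had a high, 20891 a middle and 17477 a low signal, and 9898 lay at the floor. The 160 thus lean to higher signal, and shares over all probe sets are matched for signal only where a class is named. All 7 probe sets for excitatory neuron markers, all 6 for general neuron markers and all 6 for astrocyte markers had a high or middle signal, against 1 of 5 for choroid plexus and ependyma and 0 of 4 for red blood cells. It was 6 of 9 for GABAergic neurons, 4 of 4 for oligodendrocytes and 4 of 8 for their precursors. For microglia and macrophages it was 4 of 12, for endothelial cells and pericytes 3 of 8, and for meninges and fibroblasts 11 of 14. Arrays of a group spread by a median SD of 0.23 in the high class, 0.36 in the middle, 0.74 in the low and 0.84 at the floor. The mean of 18 hybridisation controls lay at 0.49 in SII trained 2, 0.47 in SII control 1 and 0.44 in IPS trained 3, against -0.14 to 0.08 elsewhere. Both female animals were in SII. The 3' minus 5' reading of actin, which depends on RNA integrity, ran from -1.87 to 1.37 over the arrays. It was taken from centred values, so its 0 does not mean equal 3' and 5' signal. The same reading of GAPDH ran from -0.51 to 0.89. In tissue of many cell types, fewer cells of a type and less RNA per cell cannot be told apart.

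In neither region did a chaperone or co-chaperone probe set change with training at a false discovery rate of 5% in limma. In SII 0 of 160 passed (0.0% of all 52766 probe sets passed), and 3 had an unadjusted p under 0.05 (1.88%), against 3.87% of all probe sets. In IPS 0 of 160 passed (0.0% of all), and 1 had an unadjusted p under 0.05 (0.625%), against 3.27% of all. Over all probe sets this last share depended on signal class. It ran from 0.267% at high signal to 6.33% at the floor in SII, and from 0.133% to 6.11% in IPS. The smallest adjusted p among the 160 was 1.0 in SII and 0.842 in IPS. In SII 17 probe sets separated the 3 trained from the 3 control arrays (10.6%), against 7.08% of all probe sets. Of these 10 were higher and 7 lower after training, against 4.7% and 2.38% of all probe sets. In IPS 13 did so (8.12%), against 9.49% of all. Of these 6 were higher and 7 lower, against 5.77% and 3.72% of all.

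The median change of the 160 probe sets was -0.02 log2 units in SII and 0.06 in IPS, against 0.06 and 0.01 over all probe sets. In SII 79 of the 160 lay above 0 (49.4%), against 56.4% of all probe sets, and in IPS 94 (58.8%), against 51.7% of all. The median standard error of a change was 0.32 in each region. Among the 40 high-signal probe sets 29 lay above 0 in SII (72.5%), against 65.7% of all high-signal probe sets. In IPS 29 of 40 lay above 0, against 63.1% of all high-signal probe sets, and 18 of 40 did so without the array IPS trained 1. None of the probe sets for markers of other cell types passed 5% in SII. The 5 probe sets for choroid plexus and ependyma all lay above 0, with a median of 0.92 and array means from 0.06 to 0.84 in trained and -0.92 to 0.32 in control arrays. Of 14 for meninges and fibroblasts 12 lay below 0, with a median of -0.42 and array means from -0.64 to -0.07 in trained and -0.55 to 0.96 in control arrays. The other marker lists had SII medians from -0.10 for astrocytes to 0.31 for red blood cells (4 of 4 above 0). In IPS none passed 5% either. Medians there ran from -0.20 for endothelial cells and pericytes (3 of 8 above 0) to 0.37 for red blood cells (3 of 4). GABAergic neurons had -0.17 in IPS (1 of 9), and microglia and macrophages 0.15 (8 of 12). The part of these cell types in the chaperone values was not tested. The count of chaperone probe sets with an unadjusted p under 0.05 depended on single arrays. In SII it was 7 without SII trained 2 or SII trained 3 and 5 without IPS trained 2. In IPS it was 6 without IPS trained 3. It was 3 there without SII control 3, IPS control 1, IPS control 3 or IPS trained 1, and 2 without SII control 1, IPS control 2 or IPS trained 2.

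**Figure D1:**
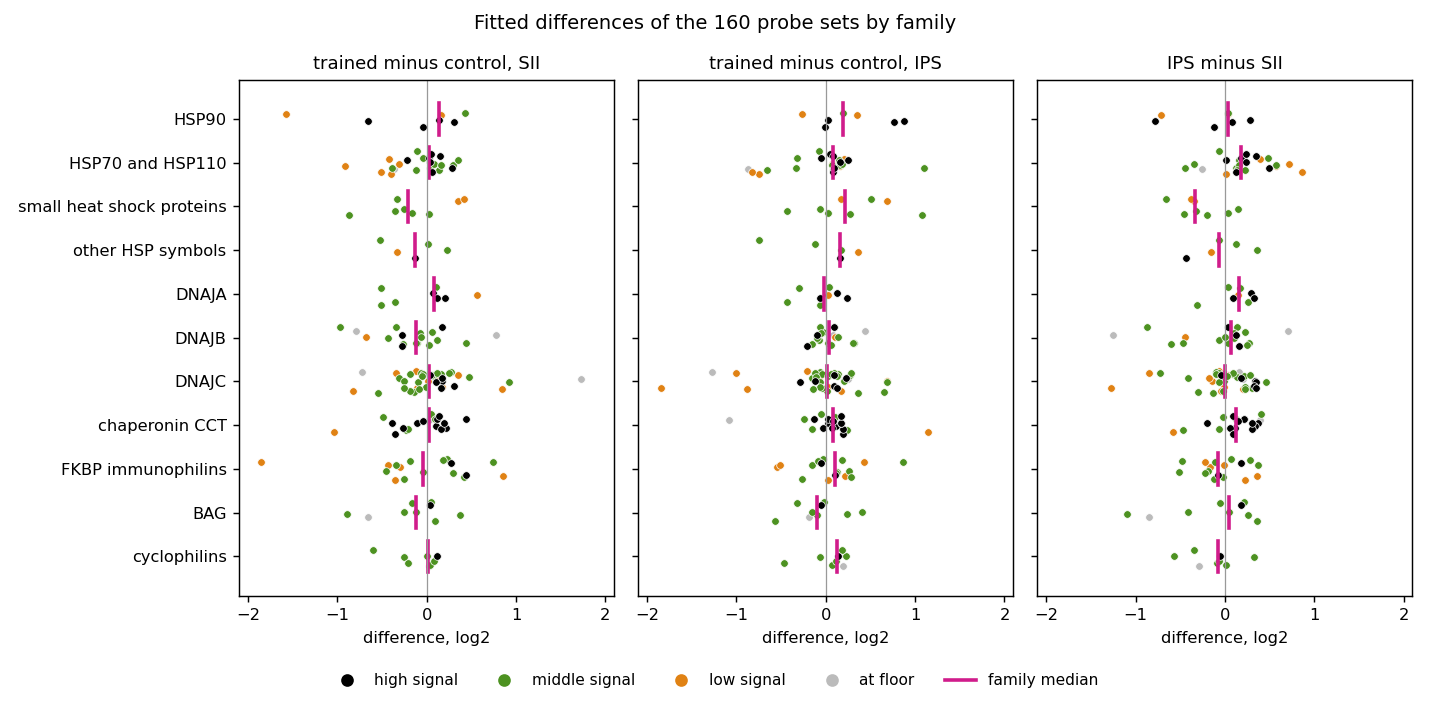
Fitted log2 difference (x axis) of each of the 160 probe sets, by family (y axis), for trained minus control in SII, trained minus control in IPS, and IPS minus SII. Points are probe sets coloured by signal class and pink lines are family medians. Most points with a difference beyond 1 have a low signal or lie at the floor, and the family medians of the training changes lie between -0.21 and 0.22.

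The family of the FKBP immunophilins holds FKBP5, which had 1 probe set, of low signal. FKBP5 lay at -1.27, -0.02 and -1.75 in the SII trained arrays, against 1.33, 0.37 and 0.70 in the SII control arrays. All 3 trained values were below all 3 control values in that region. The group means were -1.01 ± 0.90 in SII trained and 0.80 ± 0.49 in SII control animals (SD, n = 3 each). The fitted change, which weights the arrays by shared animals and so can differ slightly from the difference of the means, was -1.86 ± 0.82 (SE). Its unadjusted p in limma was 0.0455 and its adjusted p 1.0, so the change did not pass. The change stayed between -2.34 and -1.60 in all 25 alternative fits, with adjusted p from 0.856 to 1.0.

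Around the intraparietal sulcus FKBP5 lay at 0.02, -1.82 and 1.42 in the trained arrays, against -1.44, -0.86 and 0.63 in the control arrays. The groups overlapped fully, with a wider spread among the trained animals than their distance from the controls. The change was 0.43 ± 0.82 (SE), and it was -0.33 without IPS trained 3 and -0.02 without IPS control 1. The difference between the changes, IPS minus SII, was 2.29 ± 1.13, for which limma gave an unadjusted p of 0.0705 and, adjusted over all probe sets, 1.0. Of the 4 animals that gave both regions, the trained ones had IPS values above their SII values by 1.28 and 3.17, and the control ones had IPS values below their SII values, with differences of -1.81 and -1.56.

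Among the other immunophilins, FKBP4, which favours hormone binding by the glucocorticoid receptor, had 3 probe sets. Its probe set with the clearest separation, of middle signal, lay at -0.16, -0.26 and -0.15 in IPS trained arrays, against 0.01, 0.18 and 0.06 in IPS control arrays. These groups did not overlap, but the change was small, -0.27 ± 0.23, with an unadjusted p of 0.276. In SII the same probe set had a change of -0.25 ± 0.23, and there the groups overlapped. The other middle-signal FKBP4 probe set had -0.19 ± 0.36 in SII and -0.09 ± 0.36 in IPS. The low-signal one had 0.85 ± 0.60 and 0.22 ± 0.60. The mean of the 3 was 0.14 ± 0.23 in SII and -0.04 ± 0.23 in IPS. FKBP1B, which binds ryanodine receptor calcium channels, had a high signal and lay at 0.42, 0.54 and 0.01 in SII trained arrays, against -0.12, -0.15 and -0.09 in SII control arrays. It was the only high-signal immunophilin without overlap in SII, at 0.44 ± 0.22 (unadjusted p 0.0745). FKBP1A, the receptor of the drug FK506 and of rapamycin, had a low signal here and changes of -0.43 ± 0.39 in SII and -0.51 ± 0.39 in IPS. FKBP8, a membrane immunophilin of mitochondria, had -0.04 ± 0.37 and 0.13 ± 0.37. Over the 17 immunophilin probe sets, 8 lay above and 9 below 0 in SII, and 10 above and 7 below 0 in IPS.

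A list of 21 other genes of glucocorticoid action held the receptor genes NR3C1 and NR3C2 and HSD11B1 beside responsive genes. It was measured through 15 genes and 28 probe sets, so its median need not stand for responsive genes alone. None of the 28 passed in any comparison. Their median change was -0.03 in SII, with 11 above and 17 below 0, and 0.03 in IPS, with 17 above and 11 below 0. Only TXNIP, the thioredoxin-interacting protein, had an unadjusted p under 0.05 in a training comparison, with -0.84 ± 0.35 in SII (0.038). The smallest p in IPS belonged to PDK4, a kinase that limits pyruvate oxidation, at 0.52 ± 0.27 (0.0879).

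**Figure D2:**
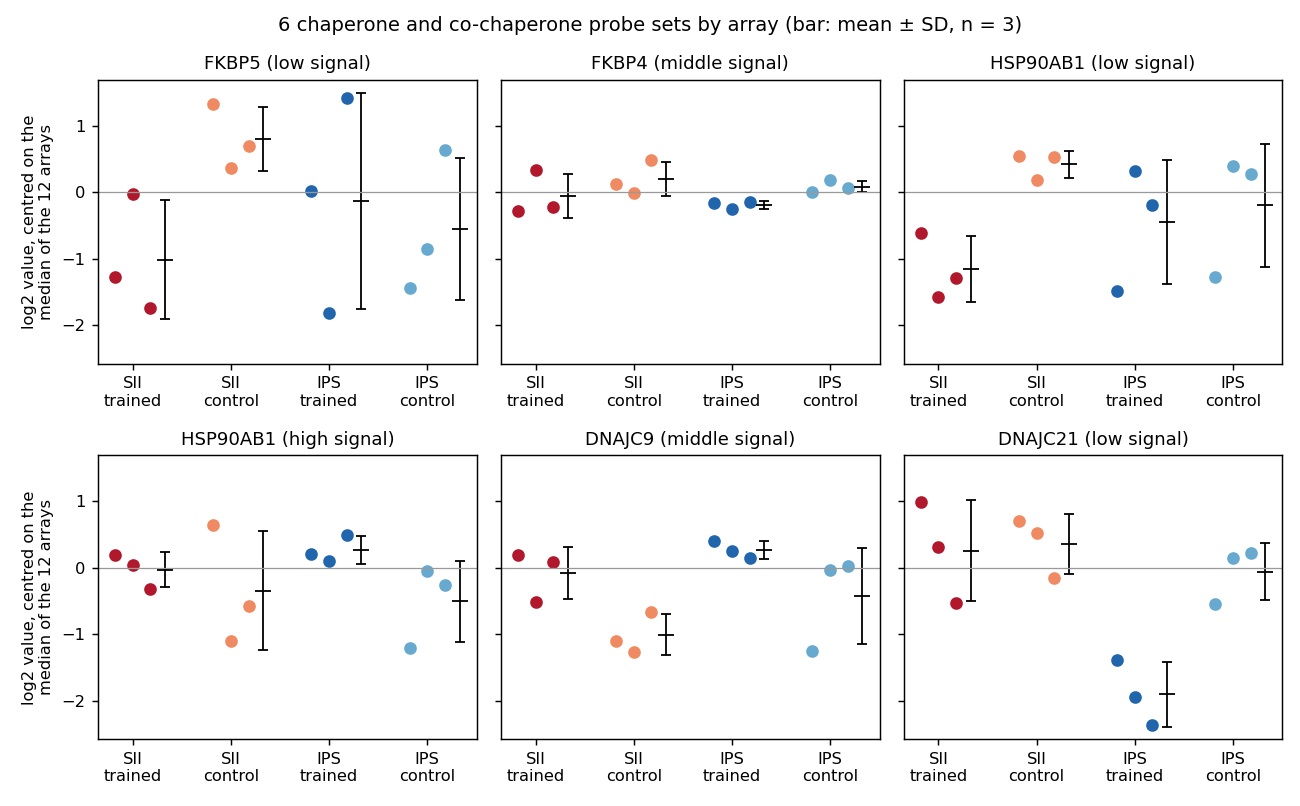
Centred log2 values (y axis) of 6 probe sets in the 12 arrays, by group (x axis); points are arrays, and the bars give the mean ± SD of 3 arrays. FKBP5 separates the SII groups and overlaps in IPS, the low-signal HSP90AB1 probe set separates the SII groups, DNAJC9 separates both regions, and DNAJC21 lies lowest in the IPS trained arrays.

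HSP90 was represented by its cytosolic forms HSP90AA1, the stress-inducible one, and HSP90AB1, the constitutive one, and by HSP90B1 of the endoplasmic reticulum. HSP90AA1 had a single probe set of middle signal at 0.03, 0.14 and 0.41 in SII trained arrays, against -0.70, 0.07 and -0.09 in SII control arrays. Its changes were 0.43 ± 0.27 in SII and 0.19 ± 0.27 in IPS, and the groups overlapped in both regions. HSP90B1, by its high-signal probe set, had 0.14 ± 0.25 in SII and 0.03 ± 0.25 in IPS.

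HSP90AB1 had 4 probe sets, and they differed. Its low-signal probe set lay at -0.61, -1.57 and -1.29 in SII trained arrays, against 0.55, 0.19 and 0.53 in SII control arrays. The groups did not overlap, and the change of -1.58 ± 0.54 had the smallest unadjusted p of the 160 probe sets in SII (0.0152). The 3 high-signal probe sets of the same gene had changes of -0.04 ± 0.23, 0.31 ± 0.44 and -0.66 ± 0.56 in that region, with overlapping groups. In IPS one of these high-signal probe sets lay at 0.21, 0.10 and 0.50 in trained arrays, against -1.20, -0.05 and -0.26 in control arrays. Its groups did not overlap there and its change was 0.76 ± 0.44 (unadjusted p 0.118). The low-signal probe set had -0.27 ± 0.54 in IPS.

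HSP70 and HSP110 proteins gave 23 probe sets of 8 genes. HSPA1A, HSPA1B, HSPA1L, HSPA2 and HSPA5 had no probe set under the rule. HSPA8, the constitutive cytosolic HSP70, had a high-signal probe set at -0.02, -0.37 and 0.02 in SII trained arrays, against -0.31, -0.09 and -0.14 in SII control arrays. In IPS this probe set lay at 0.17, 0.11 and 0.07 in trained arrays, against -0.13, 0.19 and 0.12 in control arrays. Its changes were 0.05 ± 0.20 in both regions, so the trained and control values lay within the spread of the arrays. HSPA9, the mitochondrial HSP70, had changes of 0.15 ± 0.20 in SII and 0.08 ± 0.20 in IPS by the less variable of its high-signal probe sets. The other high-signal one had 0.04 ± 0.23 and 0.16 ± 0.23, and the low-signal one -0.91 ± 0.59 and 0.16 ± 0.59. HSPA4, an HSP110-like exchange factor, had 0.06 ± 0.32 and 0.08 ± 0.32 by its high-signal probe set. HSPH1, the HSP110 protein, had 0.28 ± 0.29 and 0.09 ± 0.29 likewise. In SII this was the only 1 of the 6 HSPH1 probe sets above 0. The lowest had -0.51 there, and the mean of the 6 was -0.20 ± 0.31.

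HSPH1 also gave the largest IPS change of the family, in another of its 6 probe sets. This middle-signal probe set lay at 0.06, 1.75 and -0.21 in IPS trained arrays, against -0.37, -0.79 and -0.49 in IPS control arrays. The groups did not overlap, and the change was 1.10 ± 0.55 (unadjusted p 0.0709). The value of 1.75 in IPS trained 2 set much of it, and the change was 0.48 without that array. The other HSPH1 probe sets had IPS changes from -0.87 to 0.09. Over the 23 probe sets of the family, 12 lay above and 11 below 0 in SII, with a median of 0.03 that changed sign under quantile normalization and under median centring (-0.07 and -0.02). In IPS 15 lay above and 8 below 0.

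Small heat shock proteins were measured through HSPB3, HSPB6, HSPB7, HSPB8 and HSPB9, with 8 probe sets and none of high signal. Their median change was -0.21 in SII, with 3 above and 5 below 0, and 0.22 in IPS, with 6 above and 2 below 0. In SII it was -0.05 without SII trained 1 and -0.32 without SII control 2 or SII trained 2. In IPS it was 0.09 without IPS control 3 and 0.35 without IPS trained 3. HSPB8, which works with BAG3 to send misfolded proteins to autophagy, had -0.26 ± 0.26 in SII and -0.07 ± 0.26 in IPS by 1 of its 2 probe sets. The other had -0.17 in SII and 0.03 in IPS. HSPB6 had a probe set with a wide spread, at -0.19, 2.24 and -2.08 in SII trained arrays, against 1.36, 1.34 and -0.13 in SII control arrays. No small heat shock protein separated trained from control values in either region. Symbols that start with HSP but belong elsewhere gave 5 further probe sets, for HSPBP1, an exchange factor of HSP70, HSPBAP1, and HSPG2, which encodes the matrix proteoglycan perlecan and is no chaperone. None of the 5 separated the groups, and their changes ran from -0.52 to 0.23 in SII and from -0.75 to 0.36 in IPS.

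J proteins made up 64 of the 160 probe sets, with 8 for DNAJA, 18 for DNAJB and 38 for DNAJC. DNAJA1 and DNAJA2, general partners of cytosolic HSP70, had high-signal probe sets that moved little. DNAJA2 lay at 0.16, 0.33 and 0.35 in IPS trained arrays, against 0.08, -0.05 and 0.07 in IPS control arrays. The groups did not overlap, at 0.24 ± 0.19 (unadjusted p 0.229), and in SII DNAJA2 had 0.11 ± 0.19. DNAJA1 had 0.07 ± 0.20 in SII and 0.13 ± 0.20 in IPS.

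Within DNAJB, 6 probe sets lay above and 12 below 0 in SII, with a median of -0.12, and 10 above and 8 below in IPS, with a median of 0.04. DNAJB1, the heat-inducible partner of HSP70, had 2 probe sets, both of middle signal. The less variable one had 0.12 ± 0.20 in SII and -0.08 ± 0.20 in IPS. The other had -0.27 ± 0.35 and -0.15 ± 0.35. DNAJB11, a J protein of the endoplasmic reticulum, had 2 probe sets of middle signal. One lay at 0.12, 0.17 and 0.08 in SII trained arrays, against -0.74, 0.07 and -0.30 in SII control arrays. These groups only just separated, and the change of 0.44 ± 0.24 had an unadjusted p of 0.095. The other had 0.06 ± 0.23 in SII with overlap, and the mean of both was 0.25 ± 0.20. DNAJB6, which keeps polyglutamine proteins from aggregating, had 5 probe sets. The middle-signal one with the largest change lay at 0.04, 0.37 and -0.76 in SII trained arrays, against 0.82, 0.42 and 1.25 in SII control arrays. The change was -0.97 ± 0.46 (unadjusted p 0.0597), and the other 4 ran from -0.28 to 0.03. In IPS a middle-signal probe set of DNAJB5 lay at -0.06, 0.04 and -0.04 in trained arrays, against -0.08, -0.22 and -0.67 in control arrays, a change of 0.31 ± 0.26.

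DNAJC proteins are the most varied J proteins, and their largest changes came from single probe sets. DNAJC9, which also handles histones, had a middle-signal probe set at 0.20, -0.52 and 0.09 in SII trained arrays, against -1.10, -1.26 and -0.66 in SII control arrays. In IPS it lay at 0.41, 0.25 and 0.15 in trained arrays, against -1.25, -0.03 and 0.03 in control arrays. It was the only one of the 160 probe sets that separated trained from control values in both regions. The changes were 0.92 ± 0.36 in SII (unadjusted p 0.028) and 0.68 ± 0.36 in IPS (unadjusted p 0.0874), and averaged over the regions 0.80 ± 0.26 (unadjusted p 0.011, adjusted p 1.0 in limma). Without IPS control 1, the array at -1.25, the IPS change was 0.27. The other DNAJC9 probe sets went the other way, with -0.09 ± 0.20 in SII and -0.14 ± 0.20 in IPS for the other middle-signal one, and -0.72 ± 0.66 and -1.27 ± 0.66 for one at the floor in 2 arrays. The mean of the 3 probe sets had a change of 0.04 in SII and -0.25 in IPS.

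DNAJC21, which acts in ribosome assembly, gave the smallest p of the 160 probe sets in IPS. Its low-signal probe set lay at -1.39, -1.95 and -2.36 in IPS trained arrays, against -0.55, 0.15 and 0.23 in IPS control arrays. The 3 trained values stood apart below all other 9 arrays. The group means were -1.90 ± 0.49 in IPS trained and -0.06 ± 0.43 in IPS control animals (SD, n = 3 each). The change was -1.85 ± 0.43 (unadjusted p 0.00145, adjusted p 0.842 in limma, 0.522 to 1.0 over the alternatives). In SII the same probe set lay at 0.99, 0.32 and -0.53 in trained arrays, against 0.70, 0.53 and -0.15 in control arrays, a change of -0.11 ± 0.43. The middle-signal probe sets of DNAJC21 had 0.27 ± 0.25 and -0.04 ± 0.18 in IPS, and the mean of all 3 had -0.54. The second of these separated the SII groups at -0.26 ± 0.18.

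Further DNAJC genes separated the SII groups. DNAJC19, an anchor of the mitochondrial import motor, lay at 0.08, 0.30 and 0.04 in trained arrays, against -0.67, -0.31 and -0.04 in control arrays, a change of 0.47 ± 0.24. DNAJC12 had 1.73 ± 0.80 in a probe set at the floor in 2 arrays and 0.17 ± 0.27 in its other one. DNAJC6, the auxilin that strips clathrin from synaptic vesicles, had a high signal and changes of 0.30 ± 0.29 in SII and 0.09 ± 0.29 in IPS, with overlap in both. DNAJC10, a reductase of the endoplasmic reticulum, lay at 0.14, -0.01 and 0.01 in IPS trained arrays, against 0.15, 0.17 and 0.17 in IPS control arrays. That separation amounted to only -0.12 ± 0.21. DNAJC as a class had medians of 0.03 in SII, which changed sign under quantile normalization and median centring, and 0.02 in IPS.

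The CCT chaperonin was covered by TCP1, CCT2, CCT4, CCT5, CCT6A, CCT7 and CCT8, with 19 probe sets, 12 of them of high signal. The subunit CCT3 had no probe set under the rule. CCT5 had a high signal and lay at 0.00, 0.00 and -0.16 in SII trained arrays, against -0.25, -0.23 and -0.25 in SII control arrays. CCT6A had a high-signal probe set at 0.41, 0.04 and -0.09 in SII trained arrays, against -0.21, -0.34 and -0.42 in SII control arrays. Both separated the SII groups, at 0.19 ± 0.19 for CCT5 and 0.44 ± 0.21 for CCT6A (unadjusted p 0.342 and 0.0641). In IPS the changes were 0.17 ± 0.19 and -0.13 ± 0.21. The other subunits were taken by the least variable probe set of their highest signal class. In SII the changes were 0.16 ± 0.21 for CCT4, 0.12 ± 0.20 for CCT8 and 0.14 ± 0.22 for TCP1. There CCT2 had 0.21 ± 0.20 and CCT7 0.09 ± 0.31. Their IPS changes ran from -0.24 for CCT7 to 0.19 for CCT4. By these probe sets the SII changes of the 7 measured subunits ran from 0.09 to 0.44, which rests on the choice of probe set. The other CCT6A probe set had 0.05 in SII. Means over all probe sets of a gene were 0.24 ± 0.16 for CCT6A, -0.24 ± 0.23 for CCT2 and -0.09 ± 0.22 for TCP1. The median over all 19 probe sets of the family was 0.03, with 10 above and 9 below 0, and it changed sign under both scalings (-0.01 each). Leaving out 1 array at a time put it between -0.16 (SII control 1 left out) and 0.12 (SII trained 2), with values of -0.13 for SII trained 3 and -0.03 for SII trained 1. In IPS it was 0.08, with 13 above and 6 below 0. There it was -0.12 without IPS trained 1, 0.26 without IPS trained 3, 0.13 without IPS control 2 and 0.02 without IPS control 3.

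CCT2 alone had 10 probe sets, and they differed widely. Its SII changes ran from -1.04 ± 0.56 in a low-signal probe set to 0.21 ± 0.20 in a high-signal one. That low-signal probe set lay at -0.48, 0.05 and -0.37 in SII trained arrays, against 0.93, 0.64 and 0.68 in SII control arrays. In IPS it lay at -0.09, -0.05 and 0.84 in trained arrays, against -0.38, -2.44 and 0.11 in control arrays. The difference between its changes, 2.18 ± 0.79, was the only one above 0 with an unadjusted p under 0.05 among the 160 (0.0193, adjusted p 1.0 in limma). The 9 other probe sets of CCT2 had differences between -1.11 and 0.59. The one at the floor in 2 arrays, lay at -1.08, -1.24 and 0.36 in IPS trained arrays, against 0.42, 0.45 and 0.41 in IPS control arrays. It separated the groups there with a change of -1.08 ± 0.77.

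**Figure D3:**
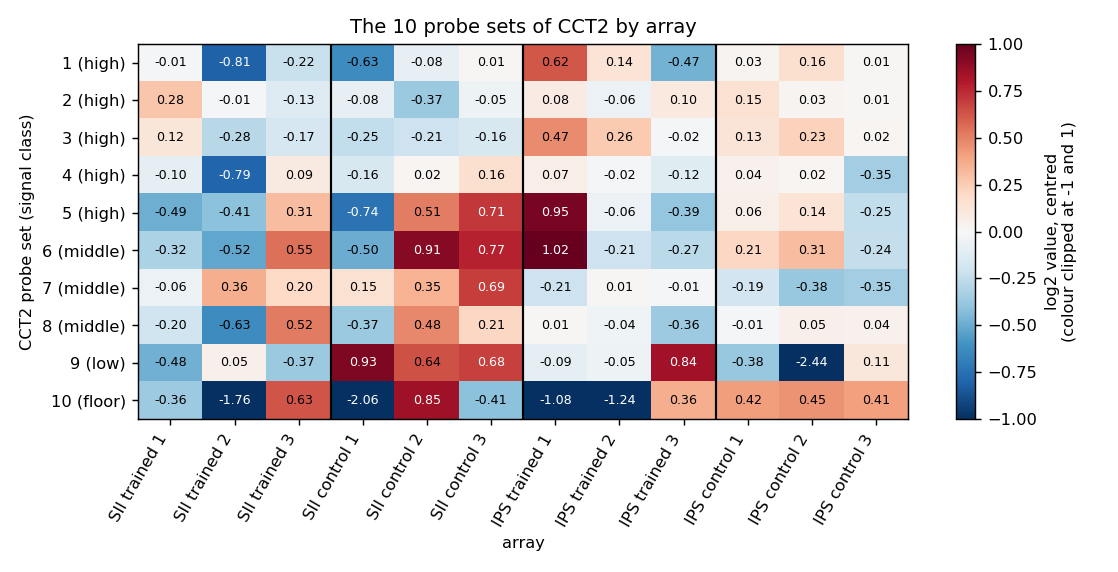
Centred log2 values of the 10 CCT2 probe sets (y axis, with signal class) in the 12 arrays (x axis), each value printed in its cell. Probe sets 5 and 6 reach 0.95 and 1.02 in IPS trained 1 and -0.74 and -0.50 in SII control 1, probe sets 2 and 3 stay within 0.47 of 0, and probe sets 9 and 10 have the widest range.

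Several probe sets, chosen after their values were seen, ran against the actin 3' minus 5' reading of the arrays. That reading was 1.17, 0.63 and -1.54 in SII trained arrays, against 0.25, -1.87 and -1.71 in SII control arrays, and -0.79, 0.54 and 1.37 in IPS trained arrays, against 0.02, 0.23 and 0.05 in IPS control arrays. The fifth CCT2 probe set in the plot lay at -0.49, -0.41 and 0.31 in SII trained arrays, against -0.74, 0.51 and 0.71 in SII control arrays. It lay at 0.95, -0.06 and -0.39 in IPS trained arrays, against 0.06, 0.14 and -0.25 in IPS control arrays. Apart from SII control 1, it was high where the actin reading was low. A DNAJA1 probe set of middle signal went the same way, at -0.16, -0.62 and 0.76 in SII trained and 0.00, 0.79 and 0.72 in SII control arrays. Its high-signal partner stayed between -0.23 and 0.45 over the 12 arrays. The part of RNA integrity in these values was not tested.

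BAG proteins had 9 probe sets. BAG3, the stress-inducible member, lay at -0.18, -0.06 and -0.12 in IPS trained arrays, against 0.06, 0.10 and 0.42 in IPS control arrays. The groups did not overlap, at -0.32 ± 0.22 (unadjusted p 0.182), and in SII the change was -0.17 ± 0.22 with overlap. BAG5 separated the SII groups the other way, at 0.30, -0.10 and -0.06 in trained arrays, against -0.54, -0.24 and -0.20 in control arrays, a change of 0.37 ± 0.21. BAG1 had -0.12 ± 0.36 in SII and 0.41 ± 0.36 in IPS, and BAG6, which handles tail-anchored membrane proteins, -0.25 ± 0.33 and -0.15 ± 0.33. In IPS 2 BAG probe sets lay above and 7 below 0.

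Cyclophilins had 8 probe sets. PPIF, the mitochondrial cyclophilin of the permeability transition pore, lay at -0.09, -0.09 and -0.11 in SII trained arrays, against 0.58, 0.32 and 0.63 in SII control arrays. The groups did not overlap and the change was -0.60 ± 0.32 (unadjusted p 0.091). In IPS it lay at 0.41, 0.25 and -0.81 in trained arrays, against -0.60, 0.09 and -0.18 in control arrays, with overlap and a change of 0.18 ± 0.32. PPIB of the secretory pathway had a high signal and lay at 0.12, 0.02 and 0.05 in IPS trained arrays, against -0.02, -0.11 and -0.11 in IPS control arrays. That separation was 0.14 ± 0.23. PPIC, also of the secretory pathway, had -0.47 ± 0.31 in IPS by 1 probe set and -0.07 ± 0.25 by the other.

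The difference between the training changes of the regions passed 5% in 0 of 160 probe sets in limma (0.0% of all probe sets). An unadjusted p under 0.05 was found for 2 (1.25%), CCT2 and DNAJC21, against 3.68% of all, and the DNAJC21 difference was -1.74 ± 0.60 (0.0148). This count was 9 without IPS trained 3, 7 without SII trained 3, 6 without SII trained 2, 4 without SII control 1, IPS trained 1 or IPS trained 2, and 1 without SII trained 1. The average change passed in 0 of 160 (0.0% of all), with an unadjusted p under 0.05 for 3 (1.88%), against 3.48% of all. These were DNAJC9, DNAJC21 at -0.98 ± 0.31 and the low-signal HSP90AB1 probe set at -0.92 ± 0.39. The count was 6 without SII trained 1 or IPS control 1, and 5 without SII control 2 or IPS trained 2. In no probe set did the 6 trained arrays lie wholly above or below the 6 control arrays, as they did in 0.121% of all probe sets.

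The last comparison sets IPS against SII over both training groups. In limma 0 of 160 probe sets passed 5% (0.0% of all), and the smallest adjusted p was 0.384. An unadjusted p under 0.05 was found for 20 (12.5%), against 9.26% of all probe sets. Of these 10 were higher and 10 lower in IPS, against 4.08% and 5.18% of all. Without 1 array this count fell to 7 (SII trained 2), 8 (SII control 3), 9 (IPS control 3), 10 (IPS control 1 or IPS control 2) or 12 (SII control 1 or IPS trained 1). All 6 IPS arrays lay above all 6 SII arrays in 4 probe sets (2.5%), against 0.639% of all. In no probe set of the 160 did they lie below, against 0.345% of all. The 4 were single probe sets of DNAJC7, DNAJC16, DNAJC21 and DNAJC27, genes with several. Other probe sets of DNAJC27 had IPS minus SII values of 0.09, -0.07 and -0.13, and those of DNAJC16 -0.01 and 0.20. The other of DNAJC7 had 0.18, and those of DNAJC21 0.28 and -1.28. The means of all probe sets were 0.03 for DNAJC27 and 0.13 for DNAJC16. The labels name the SII and IPS arrays in different ways and give no hybridisation date, so region and any hybridisation batch cannot be told apart.

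For IPS minus SII 92 of the 160 lay above 0 (57.5%), against 49.2% of all probe sets. The 40 high-signal probe sets were mostly higher in IPS. Of these 33 lay above 0 (82.5%), against 68.6% of all high-signal probe sets, with a median of 0.18 against 0.11. The count stayed between 30 and 36 in the 24 alternative fits. It included 7 of 7 for HSP70 and HSP110, 11 of 12 for CCT, 3 of 3 for DNAJA, 3 of 3 for DNAJB and 5 of 6 for DNAJC, but 2 of 4 for HSP90. In the 4 animals that gave both regions, 34, 28, 18 and 27 of the 40 were higher in IPS. In the animals with 34, 28 and 27 these were 85.0, 70.0 and 67.5%, against 68.1, 72.1 and 63.4% of all high-signal probe sets. In the animal with 18, 48.0% of all high-signal probe sets were higher in IPS, so the chaperone share was the lower one in 2 of the 4 animals. Of the 40, 13 were higher in IPS in all 4 animals (32.5%), against 23.2% of all high-signal probe sets. The animal with 18 of 40 was the one behind IPS trained 3 and SII trained 3.

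Among the single genes, HSPA9, the mitochondrial HSP70, lay at 0.22, 0.10 and 0.07 in IPS trained and 0.06, -0.02 and 0.07 in IPS control arrays. In SII it lay at 0.02, -0.36 and -0.21 in trained and -0.13, -0.44 and -0.45 in control arrays. The regions overlapped only through SII trained 1 and IPS control 2, and the difference was 0.35 ± 0.14 (unadjusted p 0.0299, adjusted p 0.507 in limma). DNAJC7, a co-chaperone that binds both HSP70 and HSP90, lay at 0.09, 0.09 and 0.45 in IPS trained and 0.04, 0.15 and 0.06 in IPS control arrays. In SII it lay at -0.08, -0.11 and -0.17 in trained and -0.04, -0.35 and -0.45 in control arrays. The regions did not overlap, at 0.35 ± 0.14 (unadjusted p 0.032, adjusted p 0.507 in limma). HSPA12B, a distant HSP70 relative known from endothelial cells, had 0.57 ± 0.22, HSPH1 0.49 ± 0.20, DNAJA2 0.33 ± 0.13 and DNAJC10 0.34 ± 0.15 (adjusted p in limma from 0.504 to 0.522 over these 4). The value for HSPH1 came from 1 of its 6 probe sets. The other 5 had -0.45, -0.26, -0.07, 0.14 and 0.86, and the mean of the 6 was 0.11 ± 0.21.

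Lower values in IPS came mainly from probe sets of middle or low signal. DNAJC25 lay at -0.30, 0.09 and -0.13 in IPS trained and -0.33, -0.29 and -0.54 in IPS control arrays. In SII it lay at 0.32, 1.28 and 0.25 in trained and 0.84, -0.09 and 0.35 in control arrays, and the difference was -0.73 ± 0.23 (unadjusted p 0.00905, adjusted p 0.459 in limma). PPIE, a cyclophilin of the spliceosome, had -0.57 ± 0.20 in one probe set and 0.01 in the other, with a mean of -0.28 ± 0.16. DNAJB6 had -0.87 ± 0.32 in the probe set that also separated the SII groups. The other 4 DNAJB6 probe sets had 0.00 to 0.25, and the mean of all 5 was -0.07 ± 0.13. CCT2 had -0.47 ± 0.15 in a middle-signal probe set and 0.34 ± 0.15 in a high-signal one, so probe sets of this gene differed between the regions in opposite directions. DNAJC21 had -1.28 ± 0.30 in the low-signal probe set, of which the IPS trained arrays made up most, and 0.30 ± 0.13 in a middle-signal one. DNAJB8 had -1.25 ± 0.44 in a probe set at the floor in 3 arrays.

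By family, the medians of IPS minus SII were 0.18 for HSP70 and HSP110 (19 of 23 above 0), 0.16 for DNAJA (7 of 8), 0.12 for CCT (14 of 19) and 0.07 for DNAJB (12 of 18). They were -0.33 for small heat shock proteins (2 of 8 above 0), -0.08 for FKBP immunophilins (6 of 17) and -0.08 for cyclophilins (2 of 8). None of these medians changed sign under quantile normalization or median centring, but several moved when single arrays were left out. The DNAJB median was -0.02 without SII control 1, -0.01 without IPS trained 2, -0.05 with sex as a term and -0.04 in the 4 animals with both regions. The DNAJA median was 0.06 without SII control 1 or SII trained 2, 0.27 without SII control 2, 0.01 with sex as a term and -0.01 in the 4 animals. The CCT median was 0.19 without SII control 3 or SII trained 3, 0.08 without IPS trained 1, and 0.04 with sex as a term and in the 4 animals. That of HSP70 and HSP110 lay between 0.14 and 0.26 when 1 array was left out. Among the families with a median below 0, that of small heat shock proteins was -0.16 without SII control 1, -0.15 without SII trained 2, -0.22 without IPS control 3 or IPS trained 2, -0.20 without IPS trained 3, and -0.04 without the 3 arrays with raised hybridisation controls. The FKBP median was -0.02 without SII control 1 or SII trained 2, -0.05 without IPS control 1 or IPS trained 1 and 0.00 without IPS trained 2. The cyclophilin median was -0.17 without SII control 3 or IPS control 3, -0.15 without SII trained 3, -0.13 without IPS trained 1 and -0.05 without SII trained 2, IPS control 2 or IPS trained 2, and it was 0.09 in the 4 animals. None of the probe sets for markers of other cell types passed 5% between the regions. Their medians were -0.35 for microglia and macrophages (2 of 12 probe sets above 0), -0.32 for choroid plexus and ependyma (2 of 5) and -0.23 for endothelial cells and pericytes (4 of 8). They were -0.18 for oligodendrocyte precursors (3 of 8), -0.15 for excitatory neurons (2 of 7), -0.15 for astrocytes (2 of 6) and 0.09 for general neuron markers (4 of 6). The other marker medians lay between -0.14 for red blood cells and 0.11 for GABAergic neurons. Their part in the family medians was not tested.

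**Figure D4:**
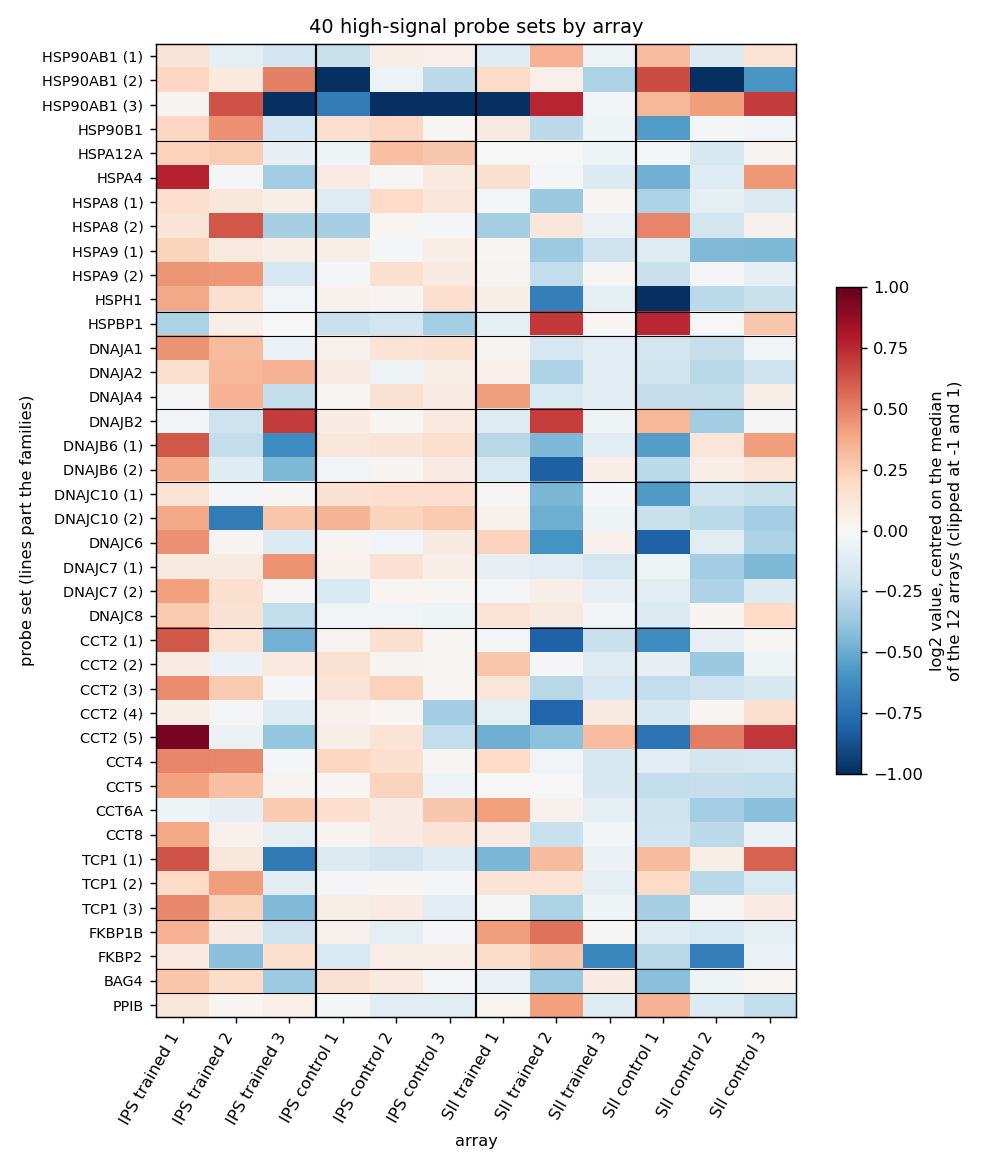
Centred log2 values (colour) of the 40 high-signal probe sets (y axis, numbered where a gene has several) in the 12 arrays (x axis, grouped as IPS trained, IPS control, SII trained and SII control). IPS trained 1 holds the highest value of 20 of the 40 and is mostly red, SII control 1 and SII control 2 are mostly blue, and HSPBP1 and 1 of 3 HSP90AB1 probe sets run the other way.

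Single arrays carried many of the extremes. IPS trained 1 held the highest value of 44 of the 160 probe sets (27.5%), against 11.4% of all probe sets. For the high-signal probe sets it held 20 of 40, against 29.1% of all of that class. SII control 1 held the lowest value of 31 (19.4%) and SII trained 2 of 26 (16.2%), against 10.8% and 10.2% of all probe sets. At high signal these shares lay closer, at 22.5% and 17.5%, against 18.4% and 16.5% of all of that class. Both of these arrays came from the female animals and had raised hybridisation controls. The animal behind IPS trained 1 also gave SII trained 1, where 13 of 160 probe sets had their highest value, and 110 of 160 were higher in its IPS than in its SII array (68.8%), against 45.5% of all. Among high-signal probe sets alone, these shares were 85.0% of the 40 and 68.1% of all in that class.

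**Figure D5:**
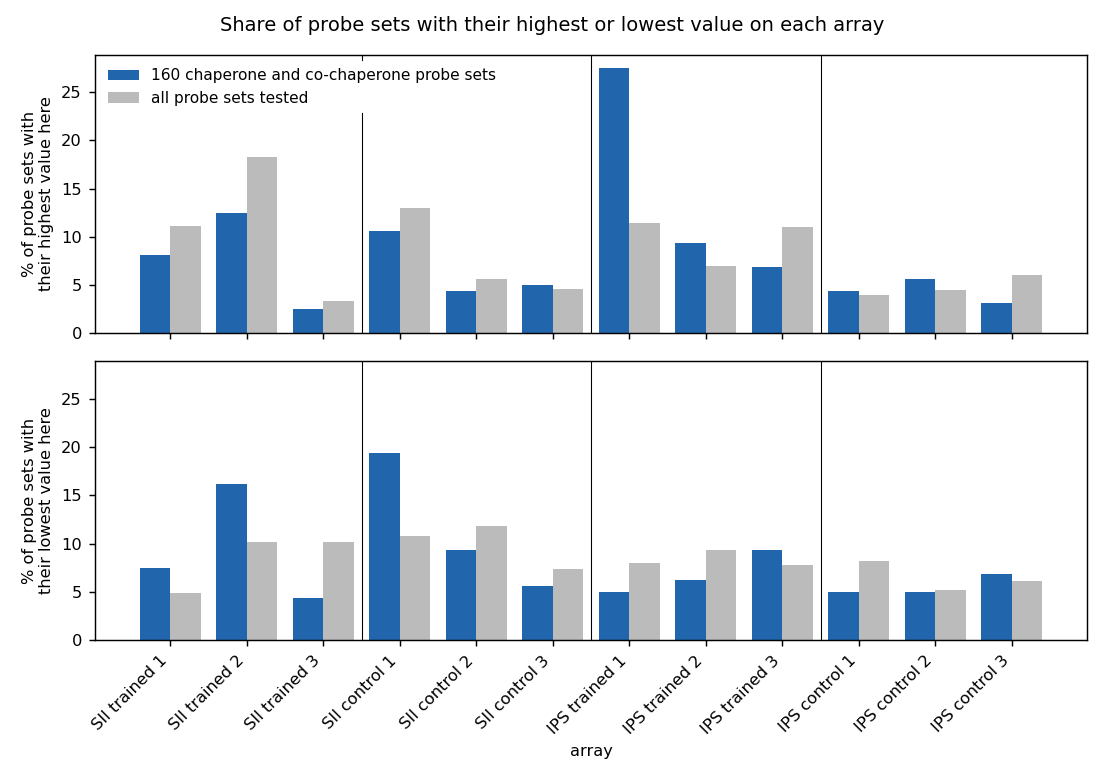
Percent of probe sets whose highest (upper panel) or lowest (lower panel) of 12 values lies on each array (x axis); blue bars are the 160 chaperone and co-chaperone probe sets and grey bars all 52766. The blue bar of IPS trained 1 reaches 27.5% in the upper panel, against 11.4% for the grey bar, and SII control 1 reaches 19.4% in the lower panel, against 10.8%. Blue and grey bars are not matched for signal class.

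Probe sets of the same gene often differed in sign. Of the 45 genes with several probe sets, 25 had all changes of 1 sign in SII (15 higher, 10 lower) and 20 in IPS (13 higher, 7 lower). For IPS minus SII it was 25 (15 higher, 10 lower). The genes DNAJC9, DNAJC21, HSP90AB1 and CCT2, which gave the smallest p-values in the training comparisons above, were each among those with mixed signs in both regions.

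None of the probe sets of other genes of the folding network passed 5% in limma in any training comparison. Over 12 genes that partner HSP90 and HSP70 outside the families above (22 probe sets), the median change was 0.00 in SII and 0.03 in IPS. Prefoldin and CCT helpers (13 probe sets) had medians of -0.02 and 0.01, genes of folding in the endoplasmic reticulum and its stress response (27 probe sets) 0.00 and 0.00, and mitochondrial proteostasis genes (13 probe sets) -0.09 and 0.07. Heat shock factors and stress-inducible genes (23 probe sets) had medians of 0.03 and 0.02. The smallest unadjusted p-values belonged to SQSTM1, an autophagy receptor, at 1.89 ± 0.79 in IPS (0.0363), CHORDC1, an HSP90 partner, at -1.64 ± 0.74 in IPS (0.050), and CRYAB, a small heat shock protein of glia, at -1.20 ± 0.58 in SII (0.0659). All 3 had a low signal. The other genes with the smallest p of their lists were PPP5C, an HSP90-bound phosphatase, at -1.02 ± 0.54 averaged over the regions, the CCT helper TXNDC9 at 0.49 ± 0.37 averaged, and the prefoldin subunit PFDN1 at -0.96 ± 0.78 in IPS. The disulfide isomerase P4HB had -0.32 ± 0.24 in SII, and PDIA3 had a difference of 0.80 ± 0.59 between the regions. The mitochondrial proteases SPG7 and CLPP had -0.42 ± 0.25 in SII and 0.29 ± 0.25 in IPS. Their unadjusted p-values ran from 0.087 to 0.282.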

How the data were processed

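RNA from 12 cortex samples was hybridised to Affymetrix rhesus arrays after extraction with a lipid tissue kit and a 3' labelling kit, per the labels' protocols. MAS5 is named per the submitters' processing notes, with no version. The deposited values fit a log2 scale, and each probe set is centred on its median over the 12 arrays (largest remaining median 2.5e-07). The log base was taken from the number grid, and no source used here states how arrays were scaled to each other. Array medians ran from -0.044 to 0.114, and levels before centring are unknown. The spacing of the values gave a signal class for each probe set: high (at least 256 on the linear scale in 11 arrays), middle (at least 16), low, or floor (the lowest value of the array in at least 2 arrays). That lowest value lay up to 1.67 log2 units apart on different arrays. No counts exist, and the number of arrays limits the precision.

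The table lists 52865 probe sets. Without its 99 control probe sets 52766 remained for the fit, of which 24956 had 1 gene symbol, 361 several and 27449 none in the platform annotation. limma 3.58.1 in R 4.3.3 fitted 4 group means with the animal as a random block (statmod 1.5.0), and p-values were adjusted by Benjamini-Hochberg over all 52766 probe sets with a threshold of 5%. Tables and figures were made in Python 3.11.15. The 5 comparisons were trained minus control in SII and in IPS, their difference, their average, and IPS minus SII. The fit was tested on simulated data. An exact permutation test of 3 against 3 arrays cannot go below 0.1 and was not used. The replicate numbers agree in only 2 of the 4 animals that gave both regions, so they do not pair the samples. For the 2 arrays of each of these 4 animals, the correlation of deviations from the group means lay between -0.0905 and 0.0561.

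Named genes are, for each comparison and direction, up to 6 probe sets with the smallest p, at most 1 a gene, among those without overlap or with p under 0.05. Of 38 well-known chaperones always described, 26 had a probe set under the rule. Not among them were HSPA1A, HSPA1B, HSPA1L, HSPA2, HSPA5, HSPB1, HSPD1, HSPE1, DNAJC5, CCT3, PPIA and PPID. They may still be on the array, as 27449 probe sets had no symbol. Each gene was given by a probe set of its highest signal class, and among several by the one with the smallest spread within groups. Up to 2 probe sets were named per list. Other genes were named after their values were seen. The members, the families and the lists were chosen with earlier results of these data known. Promoter and protein sequences were not used here. Alternatives covered scaling, blocking, sex, age, array quality, each array left out, low signals and gene means.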

Additional observations from a re-analysis of the deposited data

How the results depend on the processing

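In each of the 5 comparisons 0 of 160 chaperone and co-chaperone probe sets, and 0 of 52766 in all, passed 5% in limma, and this held under every alternative run (26 each for SII and IPS, 24 each for the difference and the average, 25 for IPS minus SII). Over these alternatives the count with an unadjusted p under 0.05 ran from 1 to 9 in SII (3 as reported), 0 to 6 in IPS (1), 1 to 10 for the difference (2), 1 to 6 for the average (3) and 6 to 26 for IPS minus SII (20). The plain 2-sample comparison gave 9 in SII and 4 in IPS. For IPS minus SII the count was 6 in the 4 animals with both regions, 7 in males only, 9 with sex as a term and 11 with a replicate block. The replicate block gave 2 in SII, 1 in IPS, 2 for the difference and 4 for the average, and 0 past 5% in all 5.

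FKBP5 in SII lay between -2.34 and -1.60 when 1 array was left out, in IPS between -0.33 and 1.28, and for IPS minus SII between -0.58 and 0.19. Its change in IPS turned to -0.36 without the 3 arrays with raised hybridisation controls, -0.02 without IPS control 1 and -0.33 without IPS trained 3. Its IPS minus SII value turned to 0.15 with sex as a term and in males only, 0.01 with age as a term, 0.02 without SII trained 2, 0.19 without IPS trained 2 and 0.27 in the 4 animals with both regions. Taking the mean of a gene's probe sets turned HSPH1 in IPS to -0.09, DNAJC9 in IPS to -0.25, CCT2 in IPS to 0.06, DNAJC9 averaged over the regions to -0.11 and CCT2 for IPS minus SII to 0.02. Apart from the gene means, the cause of these turns was not tested. FKBP5 has a low signal, so the filter to high and middle signals gave no value for it. Leaving out 1 array at a time put the median change of HSP70 and HSP110 between -0.25 and 0.13 in SII, that of DNAJB between -0.22 and -0.06 in SII and between -0.08 and 0.12 in IPS, and that of DNAJC between -0.05 and 0.06 in SII and between -0.03 and 0.04 in IPS.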
